A study of Mus musculus with 6 samples.

Results

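Of the 25006 genes counted in each library, 8 were followed here, the keratin genes Krt5, Krt7, Krt8, Krt14, Krt18 and Krt19 together with the epithelial genes Dmkn and Anxa8, which were taken as genes of the mesothelium, the epithelial sheet on the surface of the heart. They were chosen by values of the same comparison seen in earlier results, and so their own differences between groups are given as a description and are not a test. The 6 libraries were made from total RNA of heart ventricles of NMRI mouse embryos at embryonic day 17.5. The 3 control libraries carry the genotype label WT and the 3 null libraries the label VecadcreERT2; Prox1f/f, in which the VE-cadherin promoter drives a Cre that tamoxifen switches on, together with floxed alleles of Prox1, the regulator of lymphatic endothelial identity. Per the labels' protocols, females carrying floxed Prox1 were mated with males carrying floxed Prox1 and the Cre, and tamoxifen (5 mg for 40 g of body weight) was injected at E13.5 and again at E14.5. Controls and nulls therefore share the tamoxifen, Cre was named for the nulls alone, and its promoter is one of endothelium. The labels do not say whether libraries came from separate embryos, so p-values measure the spread between these libraries, part of which may be technical.

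Keratins are the intermediate filament proteins of epithelia, and a filament forms only when an acidic type I keratin (Krt14, Krt18, Krt19) pairs with a basic type II keratin (Krt5, Krt7, Krt8). Krt8 and Krt18 are the common pair of single-layered epithelia, Krt7 and Krt19 are added in many ducts and in mesothelium, and Krt5 with Krt14 is the pair of the basal layer of skin and other stratified epithelia. The mesothelium of the heart is the epicardium, which carries keratins beside the mesenchymal filament protein vimentin. Dmkn encodes dermokine, a secreted protein known from stratified epithelia, and Anxa8 encodes a calcium- and phospholipid-binding annexin.

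The genes lie at 4 places in GRCm38. Krt7 (chr15:101411043-101430313, plus strand), Krt5 (chr15:101707070-101712898, minus), Krt8 (chr15:101996698-102004482, minus) and Krt18 (chr15:102028180-102032027, plus) share the keratin cluster of chromosome 15. Krt19 (chr11:100140810-100148665, minus) and Krt14 (chr11:100203162-100207548, minus) share that of chromosome 11. Dmkn is at chr7:30763756-30781063 (plus) and Anxa8 at chr14:34085981-34100571 (plus). All 8 are annotated as protein-coding. Reads may be shared with close copies for some of them. Of the 50-base windows in the transcripts of Krt8, 29.7% also occur in another gene, most of them in the pseudogene Krt8-ps, and for Krt14 the share is 13.9%, most of it with Krt16. For Krt5 it is 12.2%, for Krt7 0.916% and for Krt18 0.72%, while Krt19, Dmkn and Anxa8 share 0 windows. Exons of Krt7 overlap the antisense gene Gm671 and those of Krt8 the antisense-strand gene Gm36026, and the strand setting of the counting is not given in the sources used here, so Krt8, Krt14 and Krt7 are the less certain values.

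Promoter sequence was available from RefSeq (GRCm38.p6) for 7 of the 8 genes, all but Krt19. The windows printed cover the bases before an annotated start that lie outside any exon of the gene; they are shown for the genes whose levels differed most with a start matching GENCODE (Dmkn and Anxa8) and, for contrast, for Krt18. They are chr7:30763506-30763755 (plus) and chr7:30776155-30776400 (plus) for the outer and the internal start of Dmkn, chr14:34085729-34085978 (plus) for Anxa8 and chr15:102027966-102028179 (plus) for Krt18, each 5′ to 3′, with matches to the AP-1 motif in capitals.
Dmkn outer start: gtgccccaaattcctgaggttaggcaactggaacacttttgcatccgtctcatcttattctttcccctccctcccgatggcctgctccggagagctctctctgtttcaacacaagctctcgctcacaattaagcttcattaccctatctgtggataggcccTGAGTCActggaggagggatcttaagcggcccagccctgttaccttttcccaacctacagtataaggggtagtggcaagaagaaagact
Dmkn internal start: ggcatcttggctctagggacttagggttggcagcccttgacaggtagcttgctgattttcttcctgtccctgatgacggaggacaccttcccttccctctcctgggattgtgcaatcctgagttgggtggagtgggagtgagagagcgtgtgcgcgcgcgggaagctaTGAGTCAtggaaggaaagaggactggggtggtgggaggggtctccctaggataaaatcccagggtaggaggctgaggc
Anxa8: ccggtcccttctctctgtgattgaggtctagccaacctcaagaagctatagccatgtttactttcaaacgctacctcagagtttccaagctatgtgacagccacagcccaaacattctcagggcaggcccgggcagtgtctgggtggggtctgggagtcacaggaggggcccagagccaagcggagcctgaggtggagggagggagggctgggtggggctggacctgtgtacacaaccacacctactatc
Krt18: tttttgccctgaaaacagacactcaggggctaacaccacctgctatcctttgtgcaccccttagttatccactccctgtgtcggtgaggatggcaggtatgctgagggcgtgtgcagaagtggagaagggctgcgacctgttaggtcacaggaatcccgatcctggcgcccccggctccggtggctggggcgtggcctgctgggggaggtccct
The AP-1 motif (TGANTCA, which reads the same on both strands) occurs once before each start of Dmkn and in no window of the other 6 genes, and 6.75% of 32851 such promoter windows of 250 bases hold it. The TEAD motif GGAATG (12.6% of windows, both strands searched) occurs in the window of Krt14 alone, which lies at an internal start 1518 bases from GENCODE's start of the gene. Neither the TATA box TATAAA (12.4%) nor the GC box GGGCGG (32.7%) was found in the windows searched. Bases inside exons were left out, which shortened the windows of Krt7, Krt8 and Krt18 to 82, 110 and 214 bases. The bases left out there were those nearest the start, so a TATA box close to the start could not be found in these genes. The percentages refer to windows of 250 bases, and the start used for Krt7 lies 1360 bases from GENCODE's. A match is a description of letters and not of a bound site.

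The libraries held 35195544 to 44330594 counts, at which 3 counts equal 0.0682 to 0.0849 CPM (counts relative to the library's total, scaled between libraries by the trimmed mean of M values, TMM). Prox1 had 5164 to 6549 counts in controls and 5809 to 6924 in nulls. Scaled, it had 148.8, 143.5 and 149.0 CPM in controls and 163.7, 159.8 and 167.6 CPM in nulls. It was thus no lower in the libraries labelled null, and every null was above every control. The counts are per gene and from whole ventricle, so deletion of the floxed stretch in endothelium was not tested. Mouse Esr1, the gene of the estrogen receptor, of which the Cre fusion carries a part, had 9 to 19 counts in controls and 244 to 298 in nulls. Whether reads of the fusion are among them was not tested. Some libraries stand apart. Control 3 and null 2 carried Xist (49485 and 50586 counts) and few Y-linked counts (343 and 357), while null 1 and null 3 carried Y-linked counts (9373 and 10157) together with Xist (1798 and 5738) and may be mixed samples. Genes of lung epithelium summed to 7.35 CPM in null 2 and to 0.409 to 1.06 CPM in the other 5 libraries, led by 140 counts of the surfactant gene Sftpc. The liver gene Alb had 322 counts in control 3 and 3 to 125 in the others.

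Krt19 was the most abundant of the 8 genes in controls and nulls. In controls it had 33.0, 28.2 and 35.7 CPM and in nulls 23.8, 19.2 and 21.5 CPM, so every null library was below every control. The means were 32.3 ± 3.80 and 21.5 ± 2.31 CPM (SD, n = 3), with a log2 fold change of -0.59 ± 0.10 (SE). Krt7, a type II keratin found with Krt19 in ducts and mesothelium, had 7.59, 6.83 and 9.31 CPM in controls and 6.29, 4.81 and 5.54 CPM in nulls. The groups did not overlap for Krt7 either, and its log2 fold change was -0.51 ± 0.14, close in size to that of Krt19. Scaled to gene length, Krt7 stood at 0.0606, 0.0637 and 0.0686 of Krt19 in controls and at 0.0696, 0.0661 and 0.0677 in nulls, so the ratio of the pair hardly varied while both levels did.

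Krt8 and Krt18 behaved less evenly. Krt8 had 2.02, 1.36 and 2.89 CPM in controls and 1.22, 1.27 and 0.750 CPM in nulls; the lowest control lay just above the highest null, and the log2 fold change was -0.96 ± 0.31. Krt18 had 4.64, 6.42 and 12.1 CPM in controls and 5.87, 5.28 and 5.20 CPM in nulls. The groups overlapped, since control 1 was below all 3 nulls and control 3 was far above the rest. The log2 fold change of Krt18, -0.50 ± 0.36, moved to -0.01 without control 3, and that of Krt8 to -0.66. Control 3 also had the highest counts of Alb, a gene of hepatocytes, whose keratins are Krt8 and Krt18. Null 3 had the next highest Alb (125 counts) and the lowest Krt18 of the nulls. Among controls, control 3 was highest in the mesothelial gene Upk3b (44.7 CPM) but not in Msln (32.3 CPM), and alone had high Xist (49485 counts). The part of any of these in its Krt18 level was not tested. The ratio of Krt8 to Krt18 per length was 0.320, 0.156 and 0.174 in controls and 0.152, 0.176 and 0.106 in nulls.

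Of the stratified pair, Krt14 was detected and Krt5 was not. Krt14 had 1.77, 1.25 and 0.906 CPM in controls (78, 45 and 32 counts) and 0.423, 0.495 and 0.145 CPM in nulls (17, 18 and 6 counts). All nulls were below all controls, and Krt14 had the lowest ratio of the 8 genes, 3.75-fold lower in nulls (log2 fold change -1.91 ± 0.41). The ratio of its summed counts was 0.259 (95% counting interval 0.179 to 0.367, which covers counting error only). Krt5, the type II keratin that pairs with Krt14 in skin, had 1, 1 and 0 counts in controls and 2, 2 and 0 in nulls. These are all under the floor of 3 counts, so Krt5 was not detectable at this depth and no fold is given.

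Dmkn and Anxa8 resembled Krt14 in level and in difference. Dmkn had 2.16, 1.36 and 1.22 CPM in controls and 0.472, 0.605 and 0.508 CPM in nulls, a log2 fold change of -1.59 ± 0.28 (3.01-fold lower). Anxa8 had 1.93, 1.36 and 1.42 CPM in controls and 0.671, 0.633 and 0.339 CPM in nulls, a log2 fold change of -1.53 ± 0.29 (2.88-fold lower). In each, the highest null stood at less than the lowest control, with ratios of summed counts of 0.324 (95% counting interval 0.239 to 0.435) and 0.340 (0.252 to 0.455). The spread between controls was wider than counting error: the coefficient of variation was 32.1% for Dmkn, 20.1% for Anxa8 and 33.3% for Krt14, where counting alone gives 12.7%, 12.8% and 13.9%. Control 1 was the highest control for all 3 of these genes and the lowest for Krt18.

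**Figure D1:**
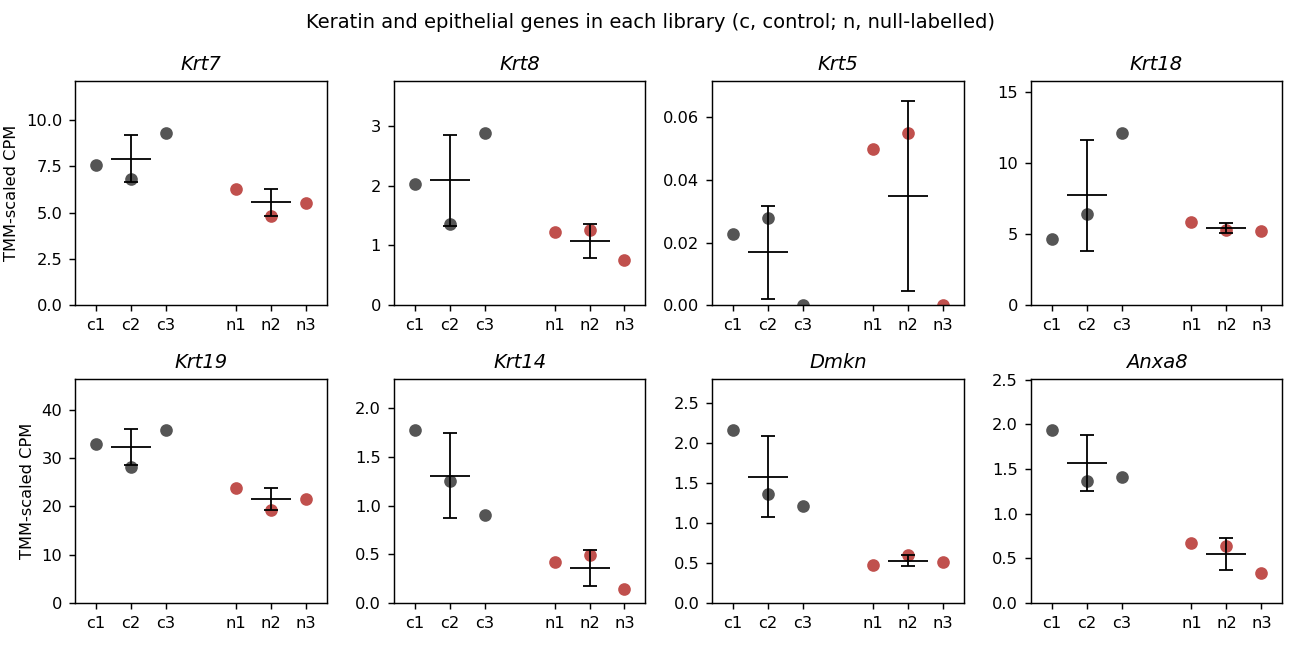
TMM-scaled CPM of the 8 genes in each library, with controls in grey, nulls in red and black bars for the group mean ± SD (n = 3). Nulls lie below all controls for Krt7, Krt8, Krt19, Krt14, Dmkn and Anxa8; Krt18 overlaps, with control 1 (4.64 CPM) below all 3 nulls and control 3 (12.1 CPM) above them, and Krt5 stands at 0 to 2 counts per library.

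In the fit across all 14815 tested genes, 7 of the 8 genes passed the filter on low counts and Krt5 did not. All 7 had a log2 fold change below 0 (median -0.96, against -0.004 over all tested genes), and for 6 the groups did not overlap, where 13.9% of all tested genes were lower with no overlap. Krt14, Krt19, Dmkn and Anxa8 passed an adjusted p of 0.05 in edgeR's quasi-likelihood test, 4 of 7, where 2.98% of all tested genes were called lower; 0 were called higher in edgeR, DESeq2 or limma-voom (2.43% of all genes in edgeR), and 0 lay above 0. Because the genes were chosen with these values known, nothing is read from the counts. Just inside the threshold was Krt14 (adjusted p = 0.0304) and just outside it Krt7 (adjusted p = 0.0688), followed by Krt8 (0.11) and Krt18 (0.523). In whole ventricle, fewer cells of a type and less RNA per cell cannot be told apart.

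The calls changed with the libraries included. The number of the 8 genes called lower was 2, 3 and 4 on leaving out control 1, control 2 and control 3, and 2, 1 and 0 on leaving out null 1, null 2 and null 3. Without null 1 and null 3, the possibly mixed libraries, it was 0, but 1 null library was then set against 3 controls, the spread came from the controls alone and the null was assumed to vary like them. The log2 fold changes there were -1.41 for Krt14, -1.39 for Dmkn, -1.31 for Anxa8 and -0.75 for Krt19. Without control 3 and null 2, the libraries with most liver and lung counts, it was 2. Over the leave-one-out fits the log2 fold change ranged from -2.21 to -1.52 for Krt14, from -1.74 to -1.28 for Dmkn, from -1.71 to -1.27 for Anxa8 and from -0.68 to -0.51 for Krt19. Krt14 kept its call without control 3 alone, and its adjusted p over these fits ran from 0.0211 to 0.0861. In null 2, the library with lung counts, Krt7 and Krt19 were lower than in null 1 and null 3, and without it their log2 fold changes were -0.42 and -0.51.

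**Figure D2:**
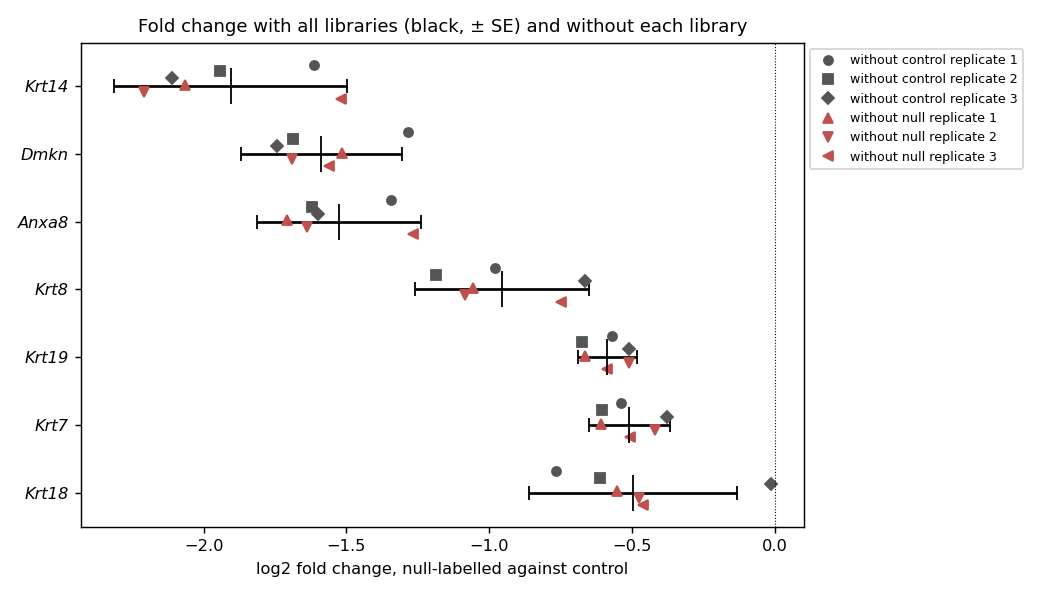
Log2 fold change of null against control for the 7 tested genes, with all libraries (black bar, ± SE) and without each library (grey, a control left out; red, a null left out). Krt14, Dmkn and Anxa8 stay between -2.21 and -1.27 and Krt19 between -0.68 and -0.51, while Krt18 moves to -0.01 without control 3.

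Per kilobase of exon in controls, the order of levels was Krt19 (17.4 ± 2.05 CPM per kilobase), Krt18 (5.38 ± 2.73), Krt7 (1.12 ± 0.180), Krt8 (1.07 ± 0.391), Anxa8 (0.835 ± 0.168), Krt14 (0.745 ± 0.248) and Dmkn (0.720 ± 0.231), with SD over 3 libraries. The ranges of neighbours from Krt7 down to Dmkn overlapped, while Krt19, Krt18 and Krt7 were set apart from each other. The annotated exons of Krt7 sum to 7049 bases; with the longest principal transcript (4094 bases) its level was 1.93 ± 0.310 CPM per kilobase, above the range of Krt8 and still below that of Krt18. In nulls Krt14 was the lowest of the 7 (0.202 ± 0.105), Dmkn (0.241 ± 0.0313) and Anxa8 (0.291 ± 0.0967) next.

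The annotation holds 53 protein-coding keratin genes in the table, of which 29 had a count in some library and 24 had none. Summed per length, keratins stood at 36.0, 34.5 and 42.0 CPM per kilobase in controls and 28.3, 24.9 and 26.3 in nulls. Krt19 made up 46.4 ± 2.70% of this sum in controls and 43.6 ± 1.92% in nulls, Krt18 14.0 ± 5.65% and 14.3 ± 0.520%, and Krt14 2.03 ± 0.787% and 0.765 ± 0.416%. Outside the 8 genes, Krt80 (16.0 ± 3.50% in controls), Krt10 (7.05 ± 0.573%) and Krt222 (6.28 ± 1.05%) were the other large parts. Of the 47 other keratins 4 could be tested, and 1 passed: Krt80, a type II keratin, fell from 37.8 ± 4.95 to 24.8 ± 1.82 CPM (log2 fold change -0.61 ± 0.10, adjusted p = 0.0175 in edgeR). It lost its call without control 2, null 1 or null 2 (adjusted p from 0.000956 to 0.0715 over the 6 leave-one-out fits). The gene lies on chromosome 15 within 250 kb of Krt7. Krt10, a type I keratin of the upper skin layers, had 5.56 ± 0.145 and 6.06 ± 0.431 CPM (log2 fold change 0.12, adjusted p = 0.551), Krt222 a log2 fold change of -0.12 (adjusted p = 0.559) and Krt79 of -0.53 (adjusted p = 0.467).

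**Figure D3:**
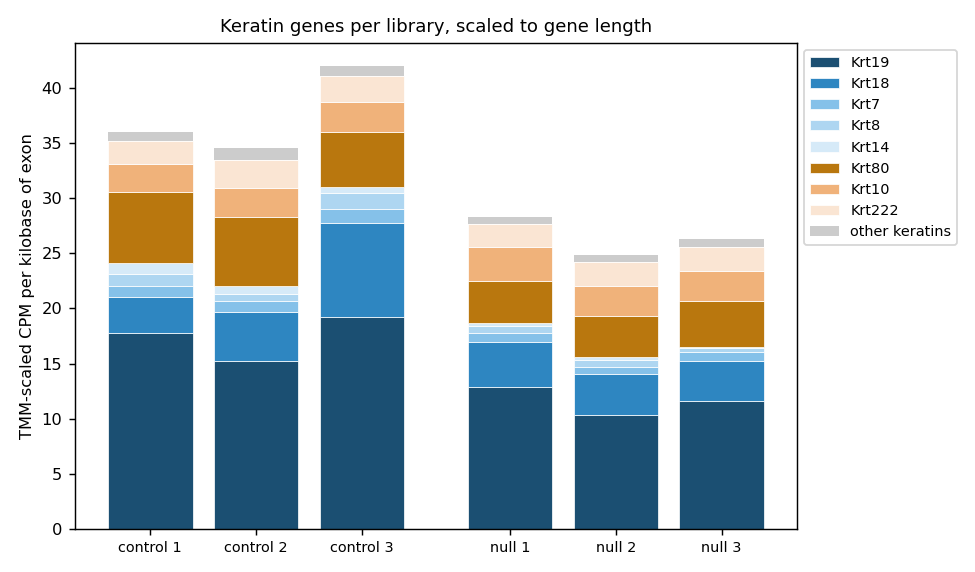
Keratin genes per library in TMM-scaled CPM per kilobase of annotated exon, stacked, with Krt19, Krt18, Krt7, Krt8 and Krt14 in blue, the largest other keratins in orange and the rest in grey. The sums are 34.5 to 42.0 in controls and 24.9 to 28.3 in nulls, and Krt19 is the largest part in each library.

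The mesothelial label was checked against other genes of that layer. All 12 mesothelial surface genes were detected and tested, among them Upk3b, a uroplakin of mesothelium (40.6, 29.3 and 44.7 CPM in controls, 36.8, 29.7 and 31.5 in nulls), Msln, which encodes mesothelin (36.1 ± 7.19 and 27.2 ± 2.47), and Lrrn4 (15.9 ± 3.67 and 16.5 ± 0.682). Of these 12, 1 fell, Upk1b (8.43 ± 1.36 to 5.30 ± 0.869 CPM, log2 fold change -0.67 ± 0.15, adjusted p = 0.0381 in edgeR), and 11 did not pass. An unadjusted p under 0.05 was found for 3 of the 12, Upk1b, Msln and Rspo1. Upk1b lost its call without control 1, control 3, null 2 or null 3 (adjusted p from 0.0292 to 0.127 over the leave-one-out fits). DESeq2 called 2 of the 12 lower, Upk1b and Msln (adjusted p = 0.0207 for Msln), and 1 higher, and limma-voom 0. With replicate number as a block, edgeR called the same 2 lower (adjusted p = 0.0389 for Msln). The list lay on either side of 0, with 7 genes below and 5 above and a median log2 fold change of -0.01; Msln had -0.41 (adjusted p = 0.195), Upk3b -0.22 (adjusted p = 0.552) and Rspo1, a Wnt pathway agonist, 0.64 (adjusted p = 0.0544). Among 5 epicardial regulators, Tcf21, also a fibroblast factor, rose (34.2 ± 0.412 to 39.9 ± 1.02 CPM, log2 fold change 0.22 ± 0.04, adjusted p = 0.0207), and lost its call without control 2 or any null library. Wt1, the transcription factor that marks epicardium, had 30.2 ± 4.30 CPM in controls and 28.7 ± 1.90 in nulls (log2 fold change -0.08 ± 0.10, adjusted p = 0.75).

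Counts of the 7 detected genes were also set against these genes within each library, a comparison that no scaling between libraries can move. Krt19 counts per Wt1 count were 1.01, 1.12 and 1.10 in controls and 0.800, 0.725 and 0.724 in nulls. Per 1000 counts of the 12 mesothelial surface genes, Krt19 had 132, 171 and 168 counts in controls and 103, 104 and 128 in nulls. Krt14 had 7.11, 7.58 and 4.25 in controls and 1.83, 2.70 and 0.862 in nulls. Anxa8 had 7.75, 8.25 and 6.64 against 2.91, 3.45 and 2.01, and Dmkn had 8.66, 8.25 and 5.71 against 2.05, 3.30 and 3.02. Krt8 had 8.12, 8.25 and 13.6 against 5.28, 6.89 and 4.45. For these 5 genes every null ratio was below every control ratio. The share of all tested genes for which this holds was not computed, so nothing is read from this count. For the other two the groups overlapped: Krt7 had 30.5, 41.4 and 43.7 in controls and 27.3, 26.2 and 32.9 in nulls, and Krt18 had 18.6, 38.9 and 57.0 against 25.4, 28.8 and 30.9. The summed mesothelial list itself ranged from 165 to 249 CPM in controls and from 169 to 231 CPM in nulls. Its largest member in each library was C3, with 92.1, 46.9 and 52.4 CPM in controls and 84.2, 59.7 and 44.4 in nulls. The part of C3 in the ratios per 1000 counts was not tested. These ratios use the contrast that chose the genes and carry no test.

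Defining markers of other epithelia were low beside Krt19. The stratified marker Trp63 was near the levels of Krt14, Dmkn and Anxa8, and some genes of these lists were as high as the keratins. Of 20 genes of simple epithelia, which summed to 41.3 to 51.2 CPM in controls and 41.3 to 48.3 CPM in nulls, 11 could be tested and 0 passed in edgeR (1 at an unadjusted p under 0.05). Cdh1, which encodes E-cadherin, had 7 to 23 counts per library (0.247 ± 0.0622 CPM in controls, 0.394 ± 0.205 in nulls) and Epcam 1 to 8 counts. Spint2, which encodes a serine protease inhibitor, made up most of the simple list with 31.3 ± 4.74 CPM in controls and 30.6 ± 1.87 in nulls. Of 21 genes of stratified epithelia 8 could be tested and 0 passed (1 at an unadjusted p under 0.05). Trp63, the regulator of stratified epithelium, had 26 to 45 counts (0.760 ± 0.103 CPM in controls, 0.988 ± 0.168 in nulls). Its mean in nulls was above those of Krt14 (0.354), Dmkn (0.529) and Anxa8 (0.548), and its mean in controls was below theirs. Krt1 and Lor had 1 to 7 counts and Ivl 0 counts in all 6 libraries. Sbsn, which neighbours Dmkn in the genome and is known with it from skin, had 4.17 ± 0.811 and 4.41 ± 0.965 CPM (log2 fold change 0.08, adjusted p = 0.855). The summed stratified list, most of it Perp, which the heart expresses widely, stood at 222 to 246 CPM in controls and 249 to 254 CPM in nulls. Of the 11 thymus genes 2 could be tested and 0 passed (0 at an unadjusted p under 0.05), with sums of 9.29 to 9.91 and 7.89 to 8.36 CPM, and of 11 lung genes none was tested. Liver genes summed to 21.3 to 57.3 CPM in controls and 40.5 to 44.6 in nulls, and 0 of 5 tested passed (1 at an unadjusted p under 0.05). DESeq2 and limma-voom also called 0 genes of these lists. The part of these tissues in the keratin levels was not tested.

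**Figure D4:**
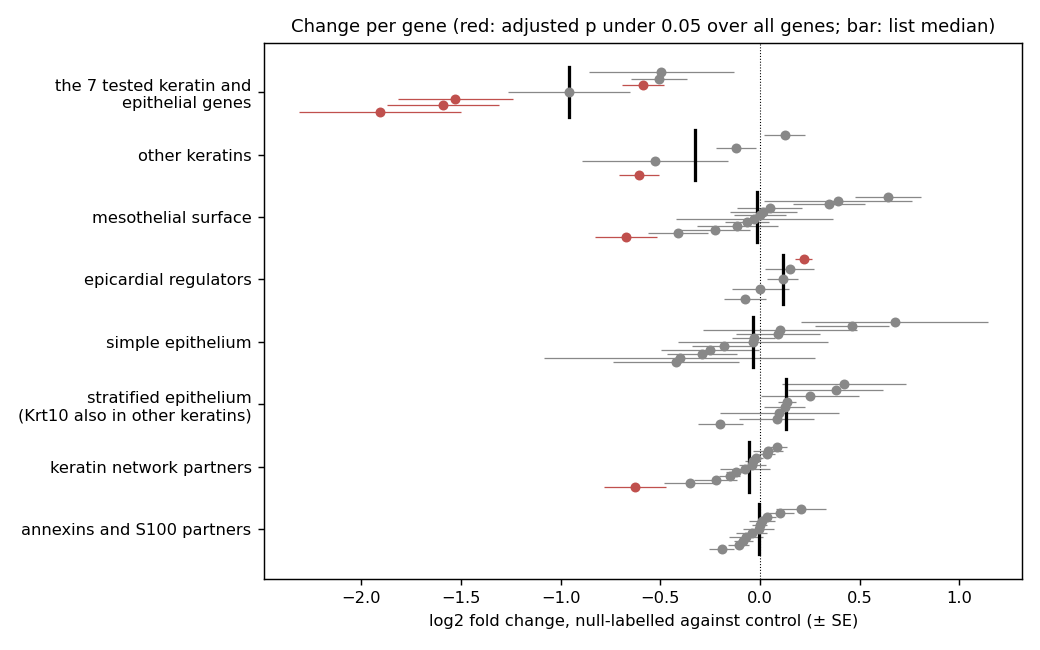
Log2 fold change (null against control, ± SE) of each tested gene in 8 lists, with genes at an adjusted p under 0.05 over all genes in red and the list median as a black bar. The 7 keratin and epithelial genes, which were chosen with these values known, lie left of 0 with a median of -0.96. The mesothelial surface list spreads on either side of 0 with a median of -0.01.

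Proteins that anchor or accompany keratin filaments showed 1 call among 12 tested genes. Of the 12, 4 had an unadjusted p under 0.05, and 9 lay below 0 and 3 above. Eppk1 and Plec had log2 fold changes of -0.35 and -0.12 (adjusted p = 0.166 and 0.177). Ppl had -0.22 (adjusted p = 0.27) and Dst 0.08 (adjusted p = 0.381). Evpl, which encodes the cornified envelope and desmosome protein envoplakin, fell from 3.29 ± 0.305 to 2.13 ± 0.250 CPM (log2 fold change -0.63 ± 0.16, adjusted p = 0.0482 in edgeR), a call that was lost without each of the 6 libraries (adjusted p from 0.0899 to 0.152); DESeq2 and limma-voom called 0 of these genes. Desmosomes of cardiomyocytes use Dsp and Jup, with log2 fold changes of 0.03 (adjusted p = 0.698) and -0.02 (adjusted p = 0.806). Vim, which encodes vimentin, had 1429 ± 73.6 CPM in controls and 1286 ± 71.5 in nulls (log2 fold change -0.15 ± 0.05, adjusted p = 0.143); fibroblasts and endothelium also express it. Of the other annexins and their S100 partners, 11 were tested and 0 passed in edgeR, DESeq2 or limma-voom (1 at an unadjusted p under 0.05), with log2 fold changes from -0.19 to 0.20 beside -1.53 for Anxa8. Among 10 genes of ventricular myocardium 1 fell, Actc1 (log2 fold change -0.18, adjusted p = 0.0401), which was called in 1 of the 6 leave-one-out fits, that without control 3 (adjusted p over these fits from 0.0294 to 0.148). Of these 10 genes, 3 had an unadjusted p under 0.05, with Myh6 and Ryr2 (log2 fold changes 0.14 and 0.23) above 0.

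Neighbouring genes gave few calls. Within 250 kb of Krt19 and of Krt14, 3 and 7 other genes were tested; 0 passed in edgeR, DESeq2 or limma-voom, and 0 had an unadjusted p under 0.05. Around Dmkn and Anxa8, 18 and 5 were tested and 0 passed in edgeR, while 3 and 2 had an unadjusted p under 0.05; DESeq2 called 1 and 0, and limma-voom 0. On chromosome 15, Krt80 was the 1 call among 7 tested neighbours of Krt7. Igfbp6, a binding protein of insulin-like growth factors that was named after its value was seen, was the 1 call among 9 neighbours of Krt8 and 10 of Krt18. It had 5.73, 5.03 and 4.64 CPM in controls and 3.18, 2.83 and 2.06 CPM in nulls (log2 fold change -0.93 ± 0.17, adjusted p = 0.0175 in edgeR).

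With the group means removed, the 7 genes did not all deviate together across the 6 libraries, a description that leaves the contrast out and has 4 degrees of freedom. Krt7 and Krt19 deviated together (Pearson r of log2 CPM deviations = 0.96), and Krt14 deviated with Anxa8 (r = 0.90) and Dmkn (r = 0.74). Across these sets r ran from -0.43 (Krt7 with Dmkn) to 0.15 (Krt19 with Anxa8), and Krt18 ran against Dmkn (r = -0.84). The libraries share depth and dissection for all genes, and Krt14, Dmkn and Anxa8 rest on 6 to 95 counts per library. Against the mean deviation of the 6 genes with a mean of 1 CPM or more over all libraries, which Dmkn and Anxa8 reached only through the controls, 16 of 17 mesothelial and epicardial genes had r above 0 and 8 had r above 0.8, where 49.4% and 6.97% of 12256 other genes did. With all 8 genes in the mean, 16 of 17 again had r above 0 but 2 had r above 0.8, Rspo1 and Upk1b (5.03% of the other genes), so the number above 0.8 depends on which genes enter the mean. The 17 genes may vary together and cannot be taken as separate observations, so nothing is read from these counts. Rspo1 had r = 0.95 with 6 genes and 0.86 with 8, Upk1b 0.82 and 0.95, and Tbx18 -0.81 and -0.93. Over all genes the 8 of highest r were Plat, Chmp1b, Nefl, Erbin, Atp2b1, Nbl1, Cstf3 and Snx30 (r from 0.99 to 1.00), and 294 genes exceeded 0.9. With all 8 genes in the mean, 0 of those 8 stayed among the top 8.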

How the data were processed

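RNA was measured by sequencing in 3 control and 3 null libraries. The authors deposited unnormalised whole-number counts for each Ensembl gene. The submitters' processing notes name cutadapt 1.13, STAR, HTSeq (0.6.1p1), DESeq2 and build mm10; what each did, the annotation and the strand setting were not given in the sources used. Of 25006 identifiers 24991 matched GENCODE M21 (GRCm38), and the other 15 took no more than 0.00212% of any library.

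In R 4.3.3, genes passing filterByExpr were scaled by TMM and tested with edgeR 4.0.16 (quasi-likelihood, robust, group only, two-sided, Benjamini-Hochberg over all tested genes, called at an adjusted p under 0.05). Where no tool is named, an adjusted p is edgeR's. Standard errors were derived from its F statistic. The members, lists and rules were chosen with earlier results of these data known. Named genes are the 8 genes, called genes of each list (at most 6), Wt1, Upk3b, Msln, Cdh1, Epcam, Trp63, Vim and Krt10, and the 8 most alike; others were named after their values were seen. Likeness used log2(CPM + 0.5). The test was tried on simulated counts, and no outcome of that trial is given here. Alternatives were RLE and upper-quartile scaling, 2 filters, DESeq2 1.42.0, limma-voom (limma 3.58.1), omitted libraries and a replicate block. Omitting control 3 with null 2, and the principal transcript length, were added after seeing the data.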

Additional observations from a re-analysis of the deposited data

How the results depend on the processing

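Of 104 alternative log2 fold changes of the 7 tested keratin and epithelial genes, 103 kept their direction; the exception was Krt18 at 0.00766 without control 3 and null 2. The number of these genes called lower was 4, and 5 with DESeq2 or with no filter on low counts, 3 with the 1 CPM filter (Krt14 was not tested), 0 without null 1 and null 3, 2 without control 3 and null 2, and 0 to 4 with 1 library left out; 0 were called higher in any of these fits. Of the genes in the other lists, 4 were called lower and 1 higher. The lower count was 1 with limma-voom, 2 with the replicate block, 0 without null 1 and null 3, 1 without control 3 and null 2, and 0 to 4 with 1 library left out. The higher count was 2 with upper-quartile scaling, 3 with no filter, 3 with DESeq2, 2 without null 1 and null 3, and 0 to 6 with 1 library left out. Over all tested genes 441 were lower and 360 higher. These counts were 552 and 543 with DESeq2, 31 and 21 without null 1 and null 3, 218 and 243 without control 3 and null 2, and from 126 to 494 and from 127 to 448 with 1 library left out. Without null 1 and null 3 a single null library was set against 3 controls and assumed to vary like them, so counts there are not a measure of stability. The cause of the other changes was not tested. Same-numbered libraries did not deviate together (r = -0.05, -0.10 and -0.16). With 3 libraries per group and the group means removed, these values cannot decide whether the numbers pair the samples. With the replicate block 4 of the 8 genes were called lower, and over all genes 302 were lower and 268 higher. The median log2 fold change of all tested genes was -0.00396 with TMM, 0.000768 with RLE and 0.00576 with upper-quartile scaling. Levels per kilobase with the principal transcript were 1.93 for Krt7 and 20.5 for Krt19. At this depth genes under 3 counts, such as Krt5, could not be compared.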
